A study of Rattus norvegicus with 70 samples.

Results

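Liver was represented by 6 vehicle libraries, 3 from male and 3 from female rats, out of the 70 libraries of a study of rats exposed to bisphenols. They were chosen by their labels as vehicle and liver, and were set against the other 17 vehicle libraries: 5 from kidney (3 male, 2 female), 6 from thyroid (3 male, 3 female), 3 from testis and 3 from ovary. The rats were Sprague-Dawley, an outbred laboratory strain without an engineered allele, and were 63 days old. All 23 vehicle libraries share the handling of the control arm: dams took the vehicle alone by mouth over gestational day 6 to lactation day 6, and their pups likewise from postnatal day 7 until day 63. Each litter was reduced to 3 males and 3 females, and which of the rats were littermates is not known. The vehicle itself, litter, cycle stage and time of day are not given in the labels. Rat codes recur across organs, so the organs came from the same 6 animals, 3 of each sex. Libraries of rats given bisphenol A (BPA) or a mixture of BPA, BPF and BPS (Mix), with a daily dose of 500 mg/kg for the dam and 250 mg/kg for its offspring, serve below only as other animals in which the same organ difference was measured.

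The liver makes most of the proteins of blood plasma, turns amino acid nitrogen into urea, releases glucose and ketone bodies during fasting, makes bile acids from cholesterol, and oxidises and conjugates hormones and foreign compounds. Hepatocytes, which carry out most of this work, are accompanied by Kupffer cells (resident macrophages), a fenestrated sinusoidal endothelium, vitamin A-storing stellate cells and the bile duct epithelium. In rats the hepatocyte is also one of the most sex-dependent cell types, because the pulsatile growth hormone pattern of males and the steadier one of females drive different P450, sulfotransferase and urinary protein genes.

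Hepatocyte promoters are known for sites of HNF1, HNF4 and C/EBP factors, and albumin is the classical example of a promoter with an HNF1 site next to CCAAT boxes. The 250 bases before the annotated start are shown for those promoters, among the 10 most abundant and 12 most enriched liver transcripts named below, that hold the HNF1 core motif GTTAAT on either strand. Of these 22 genes, 16 had an entry in the RefSeq table of build GRCr8, and 5 of the 16 held the core motif. The sequences run 5′ to 3′ along the gene's own strand and capitals mark GTTAAT or its reverse complement ATTAAC. They come from chr14:17906980-17907229 (minus strand) for Alb, chr14:18916005-18916254 (plus strand) for Gc, chr8:43551457-43551706 (minus strand) for Rup2, chr4:176282334-176282583 (plus strand) for Slco1b2 and chr5:124866632-124866881 (minus strand) for C8a.
Alb: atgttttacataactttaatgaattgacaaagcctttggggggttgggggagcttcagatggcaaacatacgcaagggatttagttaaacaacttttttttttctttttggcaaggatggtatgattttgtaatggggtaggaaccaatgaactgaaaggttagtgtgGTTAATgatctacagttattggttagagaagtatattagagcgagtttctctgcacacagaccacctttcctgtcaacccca
Gc: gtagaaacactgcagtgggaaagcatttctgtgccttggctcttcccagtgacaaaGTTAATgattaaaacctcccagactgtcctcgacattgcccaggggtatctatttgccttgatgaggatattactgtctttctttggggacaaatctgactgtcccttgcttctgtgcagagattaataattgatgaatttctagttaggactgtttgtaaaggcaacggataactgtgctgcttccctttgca
Rup2: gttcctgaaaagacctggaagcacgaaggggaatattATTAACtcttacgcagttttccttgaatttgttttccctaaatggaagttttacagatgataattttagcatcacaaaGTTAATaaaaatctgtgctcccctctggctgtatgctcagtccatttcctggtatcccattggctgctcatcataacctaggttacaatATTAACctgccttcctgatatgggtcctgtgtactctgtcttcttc
Slco1b2: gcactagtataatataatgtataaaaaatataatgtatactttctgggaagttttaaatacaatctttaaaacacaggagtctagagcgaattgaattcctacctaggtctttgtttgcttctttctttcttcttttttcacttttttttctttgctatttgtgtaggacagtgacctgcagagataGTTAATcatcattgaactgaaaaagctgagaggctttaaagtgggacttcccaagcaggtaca
C8a: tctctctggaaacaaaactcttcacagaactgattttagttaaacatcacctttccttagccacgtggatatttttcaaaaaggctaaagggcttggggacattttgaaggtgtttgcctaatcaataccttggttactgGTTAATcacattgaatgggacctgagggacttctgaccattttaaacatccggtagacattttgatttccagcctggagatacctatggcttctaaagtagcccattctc
Counted back from the annotated start, the core motif begins at -82 in Alb, -63 in Slco1b2, -110 in C8a and -194 in Gc, and Rup2 holds it 3 times, at -213, -135 and -46. The start used for Alb lies 64 bases inside the widest span that RefSeq gives the gene, and that for Slco1b2 lies 7 bases inside. Of the matched genes without the core motif, Ttr has its start 2074 bases inside and Pon1 4467 bases inside. A start further upstream was not searched for them. Among liver-enriched rows (defined below), 59 of the 581 matched to a promoter held the core motif, or 10.2%, against 4.54% of the 10628 matched rows among all rows tested and 6.45% of all 33469 promoters in the table. The HNF4 element CAAAGTCCA stood in 2.07% of liver-enriched promoters and 0.348% of those of all rows tested. The C/EBP motif TTGCGNAA was in 0.861% against 1.02%, the TATA box TATAAA in 13.4% against 7.74%, and CCAAT in 38.2% against 35.4%. Over all 33469 promoters in the table the shares were 0.338% for the HNF4 element and 0.729% for the C/EBP motif. They were 12.9% for the TATA box, near that of liver-enriched promoters, and 34% for CCAAT. Both strands were searched in each case, motifs may overlap, and these letter matches were not tested as binding sites.

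Liver libraries held 7433960 to 10837500 counts, against 5378208 to 10929957 over all 23 vehicle libraries. Counts were concentrated in few transcripts. In liver 85 to 100 rows made up 50% of the counts outside ribosomal RNA. The same share took 506 to 760 rows in kidney, 539 to 545 in testis, 266 to 481 in thyroid and 522 to 618 in ovary. Ribosomal RNA rows took 2.72%, 2.50% and 23.4% of the counts in the male livers and 13.9%, 24.2% and 23.3% in the female livers, so it was lowest in male livers 1 and 2. Levels are given as CPM, the counts scaled to a common library size with TMM factors, which for a 3′ tag library counts transcripts and is not divided by length. TMM factors were 0.557 to 0.645 in liver and 0.909 to 1.40 elsewhere, so the choice of scaling matters for small differences. In bulk tissue, fewer cells of a type and less RNA per cell cannot be told apart.

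Hepatocyte markers were high in every library labelled liver. Alb, which encodes serum albumin, gave 124873, 132760 and 162522 CPM in male livers and 174800, 156081 and 137918 CPM in female livers. In kidney it gave 4.33, 39.9 and 25.9 CPM in males and 97.3 and 5.87 CPM in females, in testis 6.72, 15.9 and 81.8 CPM, and in ovary 106, 168 and 1.55 CPM. Thyroid libraries ran from 9.13 to 2007 CPM. Every liver library lay above every other, with a log2 fold change of 10.74 ± 1.11 (adjusted p = 7.8e-08). This value was 12.22 with the rat as a block, 11.61 without the thyroids and 11.29 without female thyroid libraries 1 and 2. Tat, a tyrosine-degrading aminotransferase induced by glucocorticoid, and Cps1, the entry enzyme of the urea cycle, were nearly confined to liver. Tat gave 393 to 519 CPM (median 444) in liver, against at most 0.771 CPM in any other library. Cps1 gave 82.7 to 233 CPM (median 183) in liver, against at most 1.60 CPM in any other library. Hnf4a, the nuclear receptor that sets hepatocyte identity, is shared with the kidney: it gave 379 to 552 CPM (median 476) in liver, 182 to 489.7 CPM in kidney and at most 14.3 CPM in the other organs.

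Across the genome, 3714 of 13342 rows tested (27.8%) were higher in liver than in the equally weighted mean of the 4 other organs and 4149 (31.1%) were lower, at an adjusted p below 0.05 in edgeR's quasi-likelihood test. Of the called rows 47.2% were higher, a share that became 18.5% (1699 higher, 7502 lower) without TMM scaling. The median log2 fold change over all rows was -0.26 and became -1.21 without that scaling. With 58.9% of all rows called, a stricter class is used below. Liver-enriched rows were called, at least 4-fold higher (a log2 of 2) and higher in each of the 6 liver libraries than in each of the 17 others. There were 742 of them (5.56%), with a median log2 fold change of 4.58, and 192 had a log2 fold change of 8 or more. They made up 52.9 to 59.5% of the counts of a liver library outside ribosomal RNA, against 4.66 to 5.88% in kidney, 1.17 to 1.24% in testis, 2.86 to 4.31% in thyroid and 3.75 to 4.18% in ovary. The mirror class, liver-depleted rows, had 336 members (2.52%). Without the fold minimum or the call, 6.91% of rows had every liver library above every other and 3.28% had every liver library below. The class counts were 402 and 943 without scaling, and 758 and 351 without female thyroid libraries 1 and 2.

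Among enriched rows the next-highest mean was in kidney for 291 of the 742 (39.2%), in thyroid for 225, in ovary for 138 and in testis for 88. The same split over all rows is not given. The enriched rule leaves out rows in which a library of another organ overlaps liver, so it shapes this split. Set against each organ alone, liver was higher in 2592 rows (19.4%) and lower in 3304 (24.8%) for kidney. It was higher in 3952 (29.6%) and lower in 4554 (34.1%) for thyroid, and higher in 4215 (31.6%) and lower in 5559 (41.7%) for testis. For ovary 2824 (21.2%) were higher and 3390 (25.4%) lower. These 4 contrasts share the liver libraries. In BPA libraries, all 742 liver-enriched rows were again higher in liver, and 632 met the full rule. In Mix libraries, 739 of 742 were tested and all 739 were higher, with 621 meeting the full rule. The background there was 27.1% of rows higher in BPA libraries and 29.1% in Mix libraries. Of the 336 liver-depleted rows, 331 were lower in BPA livers and 335 in Mix livers, beside 29.5% and 34.6% of all rows.

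The most abundant liver transcripts encoded plasma carriers and apolipoproteins. After Alb, and leaving ribosomal RNA rows aside, came Apoe, a lipoprotein ligand, with 37469 to 67043 CPM (median 47299.5) in liver. Elsewhere it gave 355 to 1596 in kidney, 612 to 767 in testis, 472 to 1488 in thyroid and 2145 to 2582 in ovary. Its log2 fold change was 5.45 ± 0.27 (adjusted p = 1.49e-12). Tf, the iron carrier transferrin, gave 25902 to 39349 CPM (median 33262) in liver and reached 302 to 362 CPM in testis, where Sertoli cells are known to make it. Ttr, the carrier of thyroxine and retinol-binding protein, gave 13609 to 27202 CPM (median 21127) in liver. Gc, the vitamin D carrier, gave 17022 to 21327 CPM (median 19224) in liver. Apoc3, an inhibitor of lipoprotein lipase, gave 16973 to 19792 CPM (median 17787) in liver. Fetub and Ahsg, both fetuins, gave 7709.8 to 17162 and 8857 to 18736 CPM in liver. The protease inhibitor Serpina1 gave 8858 to 16086 CPM and Rup2 5191 to 18528 CPM in liver. For each of these 10 transcripts the lowest liver library lay above the highest library of any other organ.

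**Figure D1:**
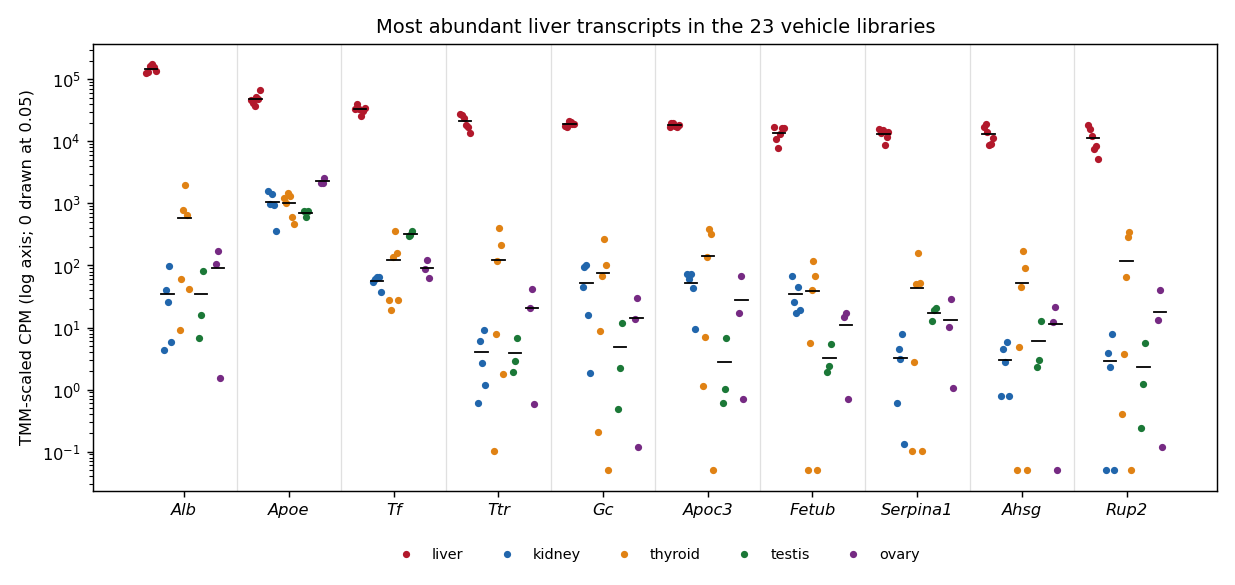
TMM-scaled CPM on a log axis for the 10 most abundant liver transcripts in each of the 23 vehicle libraries, coloured by organ, with the organ mean as a bar and values of 0 drawn at 0.05. All 6 liver points stand above every other organ for each gene; Apoe has the narrowest gap, with 2145 to 2582 CPM in ovary.

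As a group, 28 of 29 plasma carriers and protease inhibitors were higher in liver and none was lower, against a background of 27.8% of all rows higher. Their median log2 fold change was 9.84, against -0.26 over all rows. All 21 apolipoproteins and lipoprotein assembly genes were higher (median 9.93), as were all 24 coagulation genes (median 10.05, or 9.41 with genes that had 3 or fewer counts in an organ set at the bound that 3 counts allow) and all 26 complement genes (median 6.38). Fgb, the fibrinogen beta chain, gave 9661 to 11691 CPM (median 10220.5) in liver and at most 107 CPM in any other library, a log2 fold change of 10.35 ± 0.93 (adjusted p = 1.03e-08). Plg, the precursor of the clot-dissolving protease plasmin, gave 4619.6 to 13317 CPM (median 7245) in liver. F2, prothrombin, gave 4226 to 6095 CPM (median 4910.3) in liver. Serpinc1, the thrombin inhibitor antithrombin, gave 3549 to 4747 CPM (median 4158) in liver and 82.4 to 238 CPM in kidney. In the complement list, C3, the central component, gave 6077 to 7080 CPM (median 6609) in liver and C9, of the membrane attack complex, 2499 to 3598 CPM (median 3174) in liver. Serping1, the C1 inhibitor, was less restricted, with 2288 to 3469.5 CPM (median 2661) in liver and 105 to 329 CPM in kidney, a log2 fold change of 4.83 ± 0.19 (adjusted p = 9.56e-14).

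By size of the difference, the leading rows with at least 100 CPM in liver and at least 4 counts in every other organ mixed secreted proteins with metabolic enzymes and transporters. Sult2a1, a steroid and bile acid sulfotransferase, led with 1008 to 10825 CPM (median 4499) in liver and at most 33.3 CPM in any other library, a log2 fold change of 11.80 ± 0.94 (adjusted p = 1.81e-09, or 12.67 without male testis library 3). Itih4, an inter-alpha-trypsin inhibitor heavy chain, followed at 11.71 ± 0.89 (adjusted p = 8.52e-10, or 12.43 without female kidney library 1), and Slco1b2, an organic anion importer of the sinusoidal membrane, at 11.40 ± 0.71 (adjusted p = 4.68e-11). Cyp2c7, a retinoid- and steroid-oxidising P450, was at 11.26 ± 1.09 (adjusted p = 3.02e-08). The secreted proteins of this set were Mug1, a broad protease inhibitor, at 11.10 ± 0.84 (adjusted p = 8.71e-10, or 11.76 without female kidney library 1), Pon1, a lactonase carried on HDL, at 11.07 ± 0.82 (adjusted p = 5.95e-10, or 11.76 without female kidney library 1), and C8a, of the membrane attack complex, at 11.05 ± 0.77 (adjusted p = 2.25e-10). Apob, the structural protein of VLDL, was at 10.94 ± 0.87 (adjusted p = 1.82e-09), and Cyp1a2, which oxidises caffeine and aromatic amines, at 10.90 ± 0.83 (adjusted p = 8.92e-10). Cpb2, a fibrinolysis inhibitor, Saa4, a constitutive serum amyloid, and Apoa2 closed the set, with log2 fold changes of 10.89 ± 0.74 (adjusted p = 1.82e-10), 10.88 ± 0.96 (adjusted p = 7.85e-09, or 11.49 without female ovary library 2) and 10.82 ± 0.91 (adjusted p = 3.98e-09). These folds rest on few counts in the other organs; over all alternatives other than the removal of scaling they lay between 10.17 and 13.10 for the 12 genes.

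Nitrogen disposal genes were higher in liver. All 7 urea cycle genes were higher (median log2 fold change 6.19), as were all 29 genes of amino acid breakdown (median 5.14, or 4.97 at the bound). Arg1, arginase, gave 1011 to 1955 CPM (median 1365) in liver, against at most 19.3 CPM in any other library. Otc, which makes citrulline, gave 294 to 359.7 CPM (median 346) in liver, against at most 5.86 CPM in any other library. Ass1 and Asl, which make argininosuccinate and split it, were also read in kidney. Ass1 gave 958 to 1526 CPM (median 1137) in liver, 334 to 983 CPM in kidney and 52.5 to 92.1 in testis, a log2 fold change of 4.09 ± 0.24 (adjusted p = 1.51e-11). Asl gave 231 to 480.1 CPM (median 386) in liver and 33.8 to 85.6 CPM in kidney, a log2 fold change of 3.57 ± 0.16 (adjusted p = 3.46e-13). Tdo2, the tryptophan-degrading dioxygenase, was nearly confined to liver in these libraries, at 1279.8 to 2231 CPM (median 1614) in liver, against at most 14.5 CPM in any other library. Hpd, of tyrosine breakdown, reached 565 to 1692 CPM in kidney, against 1135 to 2778 CPM (median 2177) in liver.

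In the methionine cycle and one-carbon list 15 of 16 genes were higher (median 4.71) and 1 was lower. Mat1a, the hepatic S-adenosylmethionine synthetase, gave 2475 to 3563 CPM (median 2545) in liver, against at most 34.0 CPM in any other library. Bhmt, which remethylates homocysteine with betaine, varied between rats, at 1054 to 5110.1 CPM (median 1902) in liver, and its log2 fold change was 6.95 ± 0.60 (adjusted p = 6.12e-09). The enzymes of creatine synthesis parted. Gamt, which makes creatine, was higher in liver, at 533 to 723 CPM (median 588) in liver, 47.8 to 129.3 in kidney, 24.4 to 28.9 in testis, 24.05 to 47.7 in thyroid and 144 to 189 in ovary, with a log2 fold change of 3.33 ± 0.11 (adjusted p = 1.13e-14). Gatm, the enzyme before it, was lower at -1.36 ± 0.30 (adjusted p = 0.000631), with 8.28 to 28.04 CPM (median 15.7) in liver, 219 to 1440.5 CPM in kidney and 59.8 to 65.7 CPM in testis. That direction turned to 0.029 log2 in a fit without kidney.

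Glucose metabolism divided by isoenzyme. Of 18 hepatic glucose enzymes 17 were higher in liver (median log2 fold change 4.78), whereas of 19 extrahepatic isoenzymes 13 were lower and 2 higher (median -2.36, beside 31.1% of all rows lower). The gluconeogenic members were shared with kidney. Pck1, the committed enzyme, gave 1333 to 5998 CPM (median 3004) in liver and 1756 to 6167 CPM in kidney, so those libraries overlapped. G6pc, which releases free glucose, gave 786 to 2002 CPM (median 869) in liver and 511 to 1966 CPM in kidney, against at most 12.1 CPM in thyroid, testis and ovary. Fbp1, fructose bisphosphatase, gave 1070 to 1419.8 CPM (median 1202) in liver, 393 to 1676 CPM in kidney and 275 to 292 CPM in testis. Among the extrahepatic isoenzymes Aldoa, the glycolytic aldolase, gave 55.8 to 96.6 CPM (median 82.6) in liver and 425 to 757 in kidney, 221 to 293 in testis, 319.5 to 694 in thyroid and 472 to 484 in ovary, a log2 fold change of -2.49 ± 0.18 (adjusted p = 3.62e-10), with no overlap between liver and any other organ. The lactate dehydrogenase subunits also parted within the extrahepatic list. Ldha was higher in liver, 483 to 635 CPM (median 552) in liver against 40.0 to 62.0 in kidney, 183 to 189.9 in testis, 269 to 433 in thyroid and 109 to 145 in ovary, at 1.95 ± 0.10 (adjusted p = 3.1e-12). Ldhb, the subunit that favours lactate use, was lower, 2.76 to 12.7 CPM (median 6.69) in liver against 470 to 814 in kidney, 139 to 163 in testis, 162 to 229.7 in thyroid and 97.9 to 142 in ovary, at -5.10 ± 0.17 (adjusted p = 8.49e-15).

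All 4 genes of ketone body synthesis were higher in liver, with a median log2 fold change of 3.20. Of 3 genes of ketone body use 1 was lower and 2 were not called, beside 31.1% of all rows lower. Bdh1, which makes hydroxybutyrate, gave 105 to 309.6 CPM (median 151) in liver and 7.66 to 26.5 in kidney, 18.4 to 23.8 in testis, 0 to 7.61 in thyroid and 11.7 to 16.1 in ovary, a log2 fold change of 3.97 ± 0.32 (adjusted p = 2.59e-09). Oxct1, the transferase that other organs need to burn ketone bodies, was lower in every liver library than in every other, at 2.00 to 6.37 CPM (median 3.52) in liver against 369 to 537 in kidney, 19.5 to 26.9 in testis, 78.7 to 103 in thyroid and 35.1 to 56.0 in ovary. Its log2 fold change was -4.48 ± 0.20 (adjusted p = 4.26e-13), and it was the 1 gene called among 3 of ketone use.

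**Figure D2:**
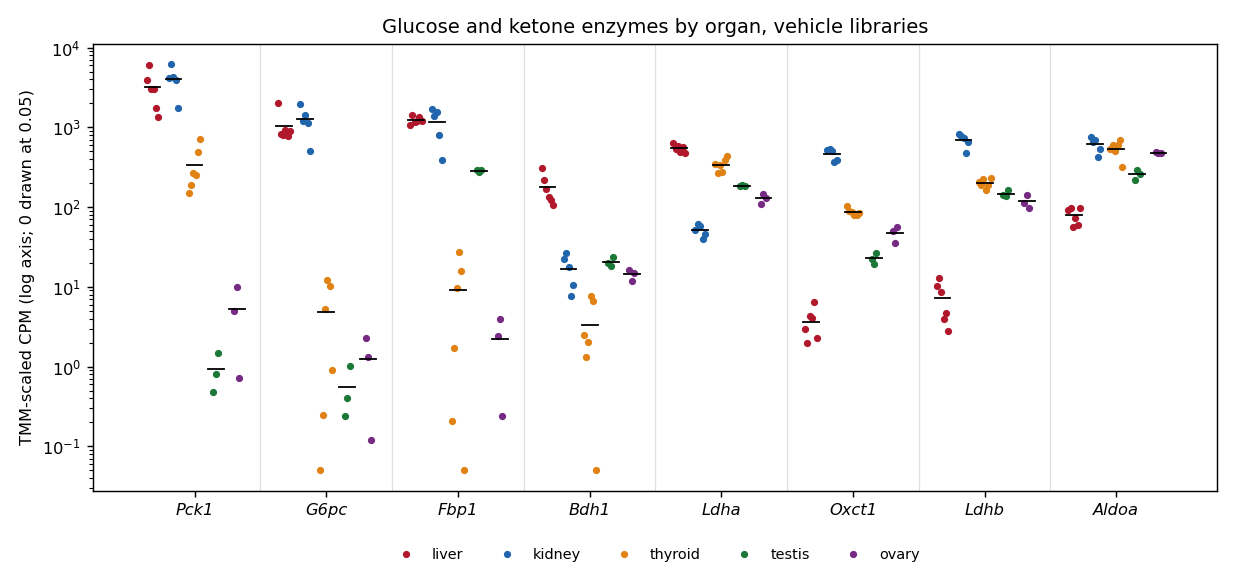
TMM-scaled CPM on a log axis for 8 enzymes of glucose and ketone metabolism in each vehicle library, by organ, with organ means as bars and 0 drawn at 0.05. The gluconeogenic enzymes Pck1, G6pc and Fbp1 are spread over overlapping ranges in kidney and liver, Bdh1 and Ldha are highest in liver, and Oxct1, Ldhb and Aldoa are lowest in liver.

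Among 26 genes of fatty acid oxidation and PPAR alpha targets, 24 were higher in liver and 2 lower (median 3.14). Fabp1, the liver fatty acid carrier, gave 5956 to 7009 CPM (median 6759.9) in liver and at most 264 CPM in any other library. Acsl1, which activates long-chain fatty acids, gave 2755 to 4286 CPM (median 3411) in liver and 269.9 to 299 in kidney, 409 to 456 in testis, 141 to 194 in thyroid and 35.9 to 40.6 in ovary, a log2 fold change of 4.37 ± 0.10 (adjusted p = 3.43e-16). Cyp4a3, a fatty acid omega-hydroxylase, was shared with kidney and spread widely, at 146 to 4247 CPM (median 941) in liver and 329 to 5754 CPM in kidney. Acot1, an acyl-CoA thioesterase, was lower, with 1.00 to 28.5 CPM (median 9.48) in liver and a log2 fold change of -1.94 ± 0.39 (adjusted p = 0.000275, or -2.78 without male liver library 1). Cholesterol synthesis and uptake was less liver-weighted: 18 of 24 genes were higher and 1 lower, with a median of 1.60. Of all rows, 27.8% were higher and 31.1% lower. Without scaling 12 of the cholesterol genes were higher and 7 lower, with a median of 0.63. Hmgcs1, the cytosolic synthase of the pathway, gave 338 to 768 CPM (median 493) in liver and 19.1 to 30.2 in kidney, 121 to 134 in testis, 19.5 to 28.7 in thyroid and 117 to 171 in ovary, a log2 fold change of 3.15 ± 0.11 (adjusted p = 2.53e-14). Cyp51, which demethylates lanosterol, overlapped between liver, at 274 to 527 CPM, and testis, at 377 to 436 CPM. Sqle, squalene epoxidase, was the lower member with TMM scaling, at 19.0 to 60.5 CPM (median 34.5) in liver. Its log2 fold change was -0.70 ± 0.18 (adjusted p = 0.00244). The call was lost without the thyroids, at -0.21 (adjusted p = 0.379).

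All 20 genes of bile acid synthesis and transport were higher in liver, with a median log2 fold change of 8.18 (7.10 at the bound). Cyp8b1, the sterol 12-hydroxylase that sets the share of cholic acid, gave 425 to 1462 CPM (median 1072) in liver, against at most 10.4 CPM in any other library. Slc10a1, the sodium-dependent bile acid importer, gave 641 to 946 CPM (median 796) in liver, against at most 10.8 CPM in any other library. Baat, which joins bile acids to taurine and glycine, gave 376 to 937 CPM (median 698) in liver, against at most 12.1 CPM in any other library. Drug metabolism followed: 30 of 34 P450 genes of families 1 to 3 were higher and 1 lower (median 7.92), and 28 of 34 conjugating enzymes were higher and 1 lower (median 3.88). Cyp2e1, which oxidises ethanol, gave 3598 to 10626 CPM (median 4805) in liver and 127.4 to 663 CPM in kidney, a log2 fold change of 7.86 ± 0.37 (adjusted p = 9.04e-13). Cyp2c23, an arachidonic acid epoxygenase, overlapped between liver, at 1355 to 2864 CPM, and kidney, at 943 to 2106 CPM. Mgst1, a microsomal glutathione transferase, gave 4005 to 5465 CPM (median 4628) in liver, a log2 fold change of 4.28 ± 0.13 (adjusted p = 2.41e-15). Gstp1, the transferase best known as absent from normal hepatocytes, was lower, at 24.02 to 58.4 CPM (median 28.4) in liver, 124 to 308 CPM in kidney and 26.5 to 34.6 CPM in testis, with a log2 fold change of -1.68 ± 0.16 (adjusted p = 1.96e-08). Members of the P450, sulfotransferase and glutathione transferase families share near-identical sequence, so their split between genes is uncertain.

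Of 23 liver transcription factors 21 were higher and none lower (median 4.28). Creb3l3, a membrane-bound factor of lipid and iron genes, gave 1113 to 1748 CPM (median 1275) in liver, a log2 fold change of 8.78 ± 0.56 (adjusted p = 6.47e-11). Cebpa gave 211 to 344 CPM (median 271) in liver and 22.8 to 45.1 in kidney, 1.20 to 2.04 in testis, 8.82 to 37.8 in thyroid and 24.6 to 30.0 in ovary, a log2 fold change of 4.44 ± 0.17 (adjusted p = 6.41e-14). Onecut1, the factor HNF6, was spread widely, at 52.4 to 909.9 CPM (median 276) in liver, yet every liver library lay above 2.15 CPM, its maximum elsewhere. Of 23 secreted hormones and their regulators 20 were higher and 2 lower. Igf1, the growth hormone-induced growth factor, gave 2233 to 3498 CPM (median 2792) in liver and 22.8 to 86.4 in kidney, 54.7 to 82.8 in testis, 68.4 to 171 in thyroid and 172 to 263 in ovary, a log2 fold change of 4.87 ± 0.21 (adjusted p = 2.65e-13). Hamp, the iron hormone hepcidin, gave 496 to 4059 CPM (median 2121) in liver, against at most 14.0 CPM in any other library. Agt, angiotensinogen, gave 1480.3 to 2925 CPM (median 1886) in liver, a log2 fold change of 8.31 ± 0.32 (adjusted p = 6.41e-14). The binding proteins Igfbp2 and Igfbp7 were lower, at -2.22 ± 0.26 (adjusted p = 3.36e-07) and -1.87 ± 0.20 (adjusted p = 1.16e-07). In iron handling 17 of 18 genes were higher (median 2.24). Without scaling 13 of them were higher and 3 lower (median 1.28). Among the higher ones Tfr2, a sensor of transferrin, gave 162 to 271 CPM (median 219) in liver and at most 2.41 CPM in any other library. Tmprss6, a protease that restrains hepcidin, gave 286 to 441 CPM (median 366) in liver and at most 6.54 CPM in any other library.

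Hepatocytes differ along the lobule, and both ends were represented in these whole-organ libraries. Of 13 periportal markers 12 were higher in liver and 1 lower (median 6.21), and of 14 pericentral markers 10 were higher and 2 lower (median 3.66, or 2.83 at the bound). The pericentral Gulo, which makes vitamin C in rats, gave 512 to 1074 CPM (median 646) in liver, against at most 5.57 CPM in any other library. Lect2, a secreted chemotactic protein, gave 344 to 627 CPM (median 501) in liver, against at most 5.68 CPM in any other library. The 2 pericentral genes on the lower side were the ammonium transporter Rhbg, at -2.09 ± 0.32 (adjusted p = 1.33e-05), and the glutamine synthetase Glul, at -0.44 ± 0.14 (adjusted p = 0.00969). Glul gave 124 to 258 CPM (median 168) in liver, 972 to 1047 CPM in testis and 325 to 676 CPM in kidney, and its log2 fold change was -0.09 without kidney (adjusted p = 0.644) and turned to 0.21 without the testes.

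Markers of liver macrophages and sinusoidal endothelium were mostly higher in liver. Of 14 Kupffer and macrophage markers 13 were higher and 1 lower (median 3.06). Clec4f, the lectin that marks Kupffer cells in rodents, gave 133 to 226 CPM (median 159) in liver, against at most 2.40 CPM in any other library. Cd5l, Vsig4 and Marco, scavenger and complement receptors or secreted proteins of resident macrophages, gave 160.2 to 284, 57.7 to 89.2 and 27.4 to 139.8 CPM in liver, against at most 3.85, 0.867 and 3.27 CPM elsewhere. Lyz2, lysozyme, was the lower one, at 44.6 to 101 CPM (median 63.4) in liver and a log2 fold change of -1.33 ± 0.28 (adjusted p = 0.000362). All 8 sinusoidal endothelial markers were higher (median 3.94). Lyve1, a hyaluronan receptor, gave 190 to 266 CPM (median 229) in liver and 12.4 to 26.3 in kidney, 1.02 to 4.43 in testis, 23.6 to 71.5 in thyroid and 21.04 to 27.9 in ovary. The low-affinity Fc receptor Fcgr2b gave 60.0 to 101 CPM (median 94.7) in liver and at most 2.89 CPM in any other library. The nuclease Dnase1l3 gave 68.8 to 89.8 CPM (median 80.4) in liver and at most 4.13 CPM in any other library. Of 11 markers of endothelium in general 3 were higher and 3 lower, near or below the background of 27.8% and 31.1%, with a median of 0.18. Without scaling 2 were higher and 7 lower, and the median turned to -0.78. Cldn5, a tight junction protein of continuous endothelium, was lower in every liver library, at 0 to 1.30 CPM (median 0.963) in liver and 14.9 to 21.6 in kidney, 11.5 to 19.7 in testis, 17.9 to 30.8 in thyroid and 27.2 to 28.1 in ovary, a log2 fold change of -4.63 ± 0.33 (adjusted p = 2.87e-10).

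Of 12 stellate cell markers 9 were higher and 2 lower (median 3.55). Reln, a secreted glycoprotein, gave 52.4 to 94.2 CPM (median 63.7) in liver, and Lrat, which esterifies retinol, 12.4 to 38.3 CPM (median 30.5) in liver. Their log2 fold changes were 4.26 ± 0.40 (adjusted p = 1.99e-08, or 5.07 without female kidney library 2) and 3.59 ± 0.42 (adjusted p = 4.75e-07, or 4.24 without female thyroid library 1). Bile duct markers went the other way: none of 10 was higher and 6 were lower (median -2.84). Epcam, an epithelial adhesion protein that is not confined to bile ducts, stood at 5.43 to 20.5 CPM in liver against 425 to 647 CPM in kidney and 582 to 793 CPM in thyroid. Of the blood cell lists, 5 of 6 erythroid genes were higher in liver (median 1.36), and their summed level was 7544 to 18689 CPM in liver, 6217 to 12037 in kidney and 345 to 713 in testis. Of 12 lymphocyte markers 8 were higher and none lower (median 1.81). Ptprc, the common leukocyte antigen, gave 15.8 to 39.0 CPM (median 27.1) in liver, a log2 fold change of 1.92 ± 0.22 (adjusted p = 3.96e-07). Without scaling 3 erythroid genes (median 0.43) and 3 lymphocyte markers (median 0.89) were higher and none was lower. For each list of this paragraph the background was 27.8% of all rows higher and 31.1% lower.

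**Figure D3:**
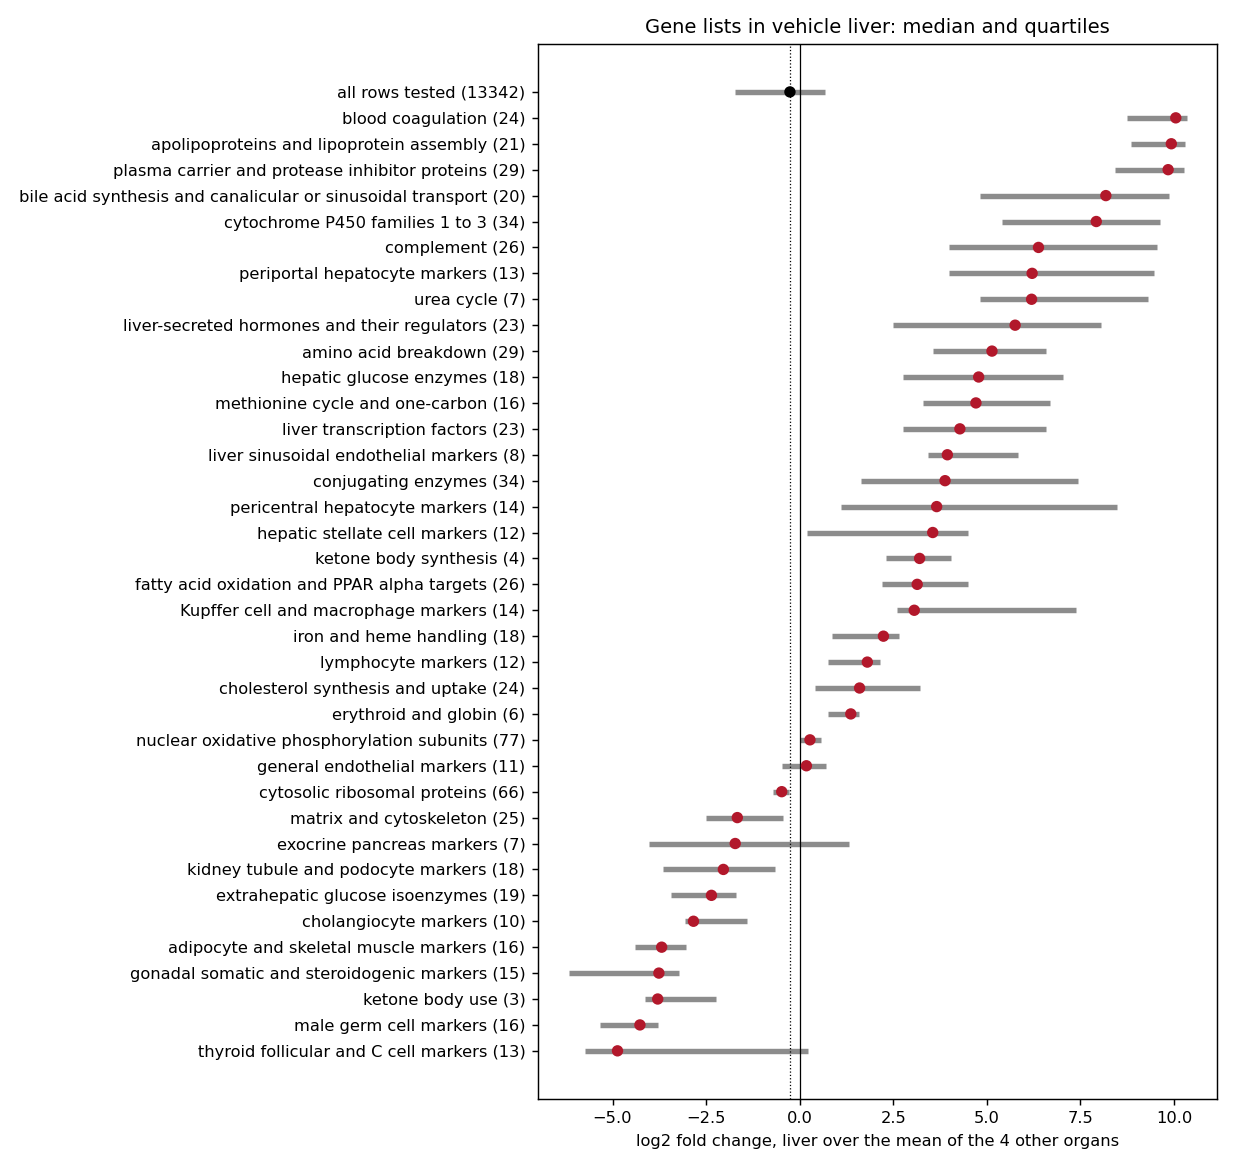
Median (dot) and quartiles (grey bar) of the log2 fold change of liver over the mean of the 4 other organs for each gene list, with the number of members tested in parentheses; the black dot and dotted line give all 13342 rows tested, median -0.26. Plasma, apolipoprotein and coagulation lists lie between 9.84 and 10.05, bile acid genes at 8.18 and cholesterol genes at 1.60. Extrahepatic glucose isoenzymes, at -2.36, and the 3 ketone use genes, at -3.79 with 1 called, lie below 0. So do matrix genes, bile duct markers and markers of other organs.

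Among the depleted rows named by size were receptors, binding proteins, enzymes and a cytoskeletal gene, and such classes were not tallied over all 336. The highest mean of these 336 rows was in testis for 137, in thyroid for 94, in ovary for 55 and in kidney for 50. The same split over all rows is not given. Folr1, a folate receptor, had very low levels in liver. Its 6 liver libraries held 0 to 0.649 CPM, against 109.9 to 359.7 in kidney, 8.48 to 9.96 in testis, 125 to 374 in thyroid and 123 to 156 in ovary, a log2 fold change of -10.64 ± 0.49 (adjusted p = 4.34e-12, or -11.37 without male liver library 3). Adgrg1, an adhesion receptor, gave 0.472 to 3.03 CPM in liver and 153 to 402 in kidney, 42.2 to 49.3 in testis, 94.4 to 204.8 in thyroid and 61.5 to 104 in ovary, a log2 fold change of -6.31 ± 0.24 (adjusted p = 5.49e-14). Igfbp5, an insulin-like growth factor binding protein, was at -5.15 ± 0.42 (adjusted p = 2.77e-09), Map1b, a microtubule protein, at -4.89 ± 0.28 (adjusted p = 1.38e-11), and Acss1, the mitochondrial acetyl-CoA synthetase, at -4.55 ± 0.23 (adjusted p = 1.95e-12). Aif1l, a calcium-binding protein, gave 0 to 2.81 CPM in liver and 249 to 387 CPM in kidney, a log2 fold change of -6.21 ± 0.42 (adjusted p = 1.51e-10). Egfl6, a secreted matrix protein, stood out in thyroid (199 to 616 CPM) against 0 to 1.30 CPM in liver. Spata33, Ccdc65, Efhd1 and Ppp1r36 were highest in testis and still below each other organ in liver: Spata33 gave 0.472 to 2.81 CPM in liver, 1173 to 1291 CPM in testis and 12.2 to 18.8 CPM in kidney. Of 25 matrix and cytoskeleton genes 18 were lower and 2 higher (median -1.67). Tmsb10, an actin-sequestering peptide, gave 71.2 to 209 CPM (median 120.1) in liver and 83.1 to 174 in kidney, 1147 to 1227 in testis, 506 to 1128 in thyroid and 1284 to 1656 in ovary, overlapping kidney alone, a log2 fold change of -2.27 ± 0.17 (adjusted p = 8.92e-10). Fn1, fibronectin, which hepatocytes secrete into plasma, was an exception, at 1043 to 1723 CPM (median 1299.9) in liver against at most 138 CPM in any other library, a log2 fold change of 5.26 ± 0.17 (adjusted p = 3.86e-15). Of 66 ribosomal protein genes 43 were lower and 3 higher (median -0.48), beside 31.1% of all rows lower and 27.8% higher. Of 77 nuclear subunits of oxidative phosphorylation 37 were higher and 10 lower (median 0.27). Both depended on scaling. Without it 62 ribosomal protein genes were lower and 0 higher (median -1.42). The oxidative phosphorylation list turned to 2 higher and 60 lower (median -0.67). Over all rows 1699 were then higher and 7502 lower.

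Defining markers of the other organs were low in liver, while their whole lists were mixed. Tg, thyroglobulin, gave 0.236 to 2.34 CPM in liver and 20772 to 78853 CPM in thyroid. Umod, of the kidney's thick limb, gave 0 to 2.16 CPM in liver and 1021 to 1891 CPM in kidney. Star and Cyp11a1, of steroid synthesis, were at 0 in all 6 liver libraries and gave 1011 to 1258 and 248 to 310 CPM in ovary. Tnp1, a spermatid protein, gave 0.920 to 74.0 CPM in liver, females included, and 45302 to 48176 CPM in testis; Prm2, another, was at 0 in all liver libraries. Over the whole lists, 2 of 18 kidney markers were higher and 9 lower, 3 of 13 thyroid markers higher and 4 lower, 1 of 16 germ cell markers higher and 8 lower, 2 of 15 gonadal markers higher and 6 lower, 1 of 16 fat and muscle markers higher and 3 lower, and 2 of 7 exocrine pancreas markers higher and 2 lower. Beside the background of 31.1% of rows lower and 27.8% higher, the lower share of the thyroid, fat and muscle, and pancreas lists was no larger than that of all rows. Among those on the higher side was Dio1, which activates thyroxine and is known in liver and kidney, with 149.7 to 385 CPM (median 244) in liver and 139.6 to 491 CPM in thyroid. Cyp17a1, the steroid 17-hydroxylase, gave 35.2 to 101 CPM (median 64.4) in liver and 62.1 to 90.0 CPM in testis, overlapping ranges in both cases. Inhba, an inhibin and activin subunit, gave 15.6 to 33.3 CPM (median 20.4) in liver and 118 to 227 CPM in ovary.

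Transcripts of the plasma protein list were also read in the other organs, at unequal levels. How much of them each organ makes itself was not tested. The 29 plasma protein genes summed to 311045 to 337790 CPM in liver, 349 to 779 in kidney, 317 to 4486 in thyroid, 357 to 745 in ovary and 414 to 635 in testis. Without Alb the sums were 343 to 739 in kidney, 308 to 2479 in thyroid, 355 to 577 in ovary and 407 to 553 in testis. Alb was thus a small part of the testis and kidney sums. With Alb, female thyroid library 1 stood highest outside liver, at 4486 CPM. It was followed by female thyroid library 2 with 1875 and male thyroid library 3 with 1783, while the other 3 thyroid libraries held 317 to 433. The germ cell list was also highest in female thyroid libraries 1 and 2 among the libraries outside the testis, at 3552 and 2009 CPM. The part of these transcripts in each fold was not tested gene by gene; leaving out both libraries gave 4227 rows higher and 3537 lower.

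**Figure D4:**
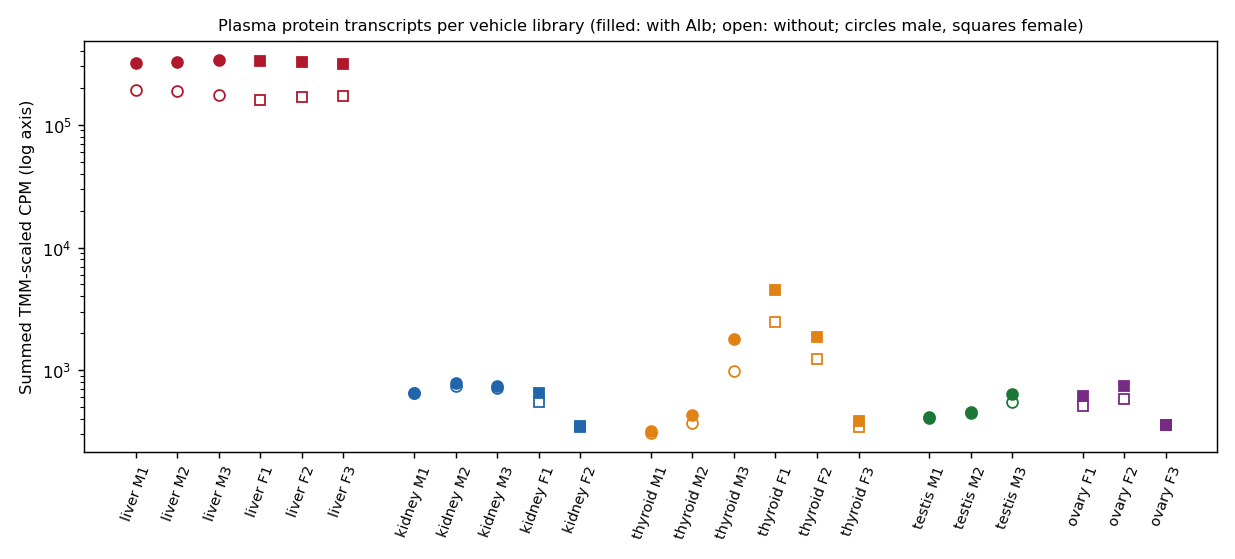
Summed TMM-scaled CPM of the 29 plasma protein genes on a log axis in each vehicle library (filled, with Alb; open, without), by organ, with circles for males (M) and squares for females (F). Liver libraries lie at 311045 to 337790 CPM and the other libraries between 317 and 4486 CPM.

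Between the sexes, 176 rows were higher in male livers (1.32%) and 89 higher in female livers (0.667%). Among the male set were genes of urinary proteins, which carry pheromones. Mup5 gave 17578, 8548 and 9405 CPM in male livers, against 3.52, 2.36 and 0.920 CPM in female livers. Obp3 gave 22396, 12720.4 and 16202 CPM in male livers, against 7.03, 1.89 and 2.53 CPM in female livers. Mup4 gave 7779.7, 4553 and 4519 CPM in male livers, against 0.391, 0 and 0.690 CPM in female livers. These family members are near identical in sequence, so reads may be split between them. The log2 difference, male minus female, was 12.33 ± 1.99 (adjusted p = 0.00186) for Mup5, 12.11 ± 1.97 (adjusted p = 0.00173, or 12.91 without female liver library 1) for Obp3 and 13.86 ± 2.23 (adjusted p = 0.0018, or 14.60 without female liver library 3) for Mup4.

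Steroid-metabolising enzymes followed on the male side. Cyp2c11, the male-specific androgen hydroxylase, gave 2157, 1506 and 1264 CPM in male livers, against 1.17, 0.944 and 0.230 CPM in female livers, a difference of 10.98 ± 1.68 (adjusted p = 0.00128). Hsd3b5, a steroid reductase of male rodent liver, gave 433, 541 and 446 CPM in male livers, against 0.195, 0.472 and 0 CPM in female livers (adjusted p = 0.0002). Hsd11b1, which regenerates active glucocorticoid, gave 630.2, 518 and 709 CPM in male livers, against 30.3, 36.3 and 39.1 CPM in female livers, a difference of 4.14 ± 0.32 (adjusted p = 6.56e-07). Sult1e1, the estrogen sulfotransferase, gave 289.9, 303 and 492 CPM in male livers, against 0, 0 and 0 CPM in female livers; with a limit of 3 counts over the female livers it was at least 1652-fold higher in males. By the same limit ste2 was at least 2594-fold higher, with 527, 513 and 663 CPM in male livers and 0 in all female livers. Slc22a8, an organic anion transporter best known from the kidney, gave 533, 317 and 351 CPM in male livers, against 0.781, 0 and 0.460 CPM in female livers. The Y-linked Eif2s3y gave 33.2, 35.6 and 34.4 CPM in male livers and 0 in all female livers, as the sex labels give it.

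On the female side A1bg, a plasma glycoprotein, gave 0.652, 0.572 and 0.216 CPM in male livers, against 3442, 3673 and 2732 CPM in female livers, with adjusted p = 2.81e-05. Sult2a6, a hydroxysteroid sulfotransferase, gave 82.6, 86.3 and 139 CPM in male livers, against 5526, 5236 and 3616 CPM in female livers, with adjusted p = 0.0251, lost without male liver library 1 (adjusted p = 0.149) or male liver library 2 (adjusted p = 0.137) or male liver library 3 (adjusted p = 0.0774) or female liver library 2 (adjusted p = 0.0543), and by DESeq2 (adjusted p = 0.212). Prlr, the prolactin receptor, gave 7.17, 34.3 and 30.5 CPM in male livers, against 958, 1001 and 683 CPM in female livers, a difference of -5.20 ± 0.61 (adjusted p = 5.64e-05). Akr1b7, an aldo-keto reductase, was at or near 0 in male livers and gave 0.489, 0 and 0 CPM in male livers, against 482, 455 and 327 CPM in female livers (adjusted p = 2.81e-05). Lifr, a cytokine receptor, gave 3.26, 1.14 and 7.79 CPM in male livers, against 213, 306 and 388 CPM in female livers, a difference of -6.27 ± 0.65 (adjusted p = 3.28e-05, or -7.11 without male liver library 3). Ifi47, an interferon-induced GTPase, gave 21.3, 20.2 and 22.9 CPM in male livers, against 409, 309.5 and 455 CPM in female livers, a difference of -4.19 ± 0.44 (adjusted p = 2.63e-05). Krt23, a keratin, gave 0.163, 0.429 and 0 CPM in male livers, against 25.6, 27.1 and 8.97 CPM in female livers, with adjusted p = 0.0126, lost without male liver library 1 (adjusted p = 0.0741) or female liver library 2 (adjusted p = 0.0541). The pancreatic carboxypeptidase Cpa1 was also higher in female livers, at 0, 0 and 0 CPM in male livers, against 63.7, 60.4 and 7.59 CPM in female livers (adjusted p = 0.005). Of the 7 pancreas markers tested, 2 were higher in female livers, Cpa1 among them, and 0 in male livers. Among the others, Cela3b, Ctrb1 and Clps, chosen after their values were seen, were at 0 in all 6 livers. The list summed to 5.21, 6.15 and 7.14 CPM in male livers and 107, 102 and 38.0 CPM in female livers. Cpa1 made up only part of the female sums, so other members were also read in female livers.

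**Figure D5:**
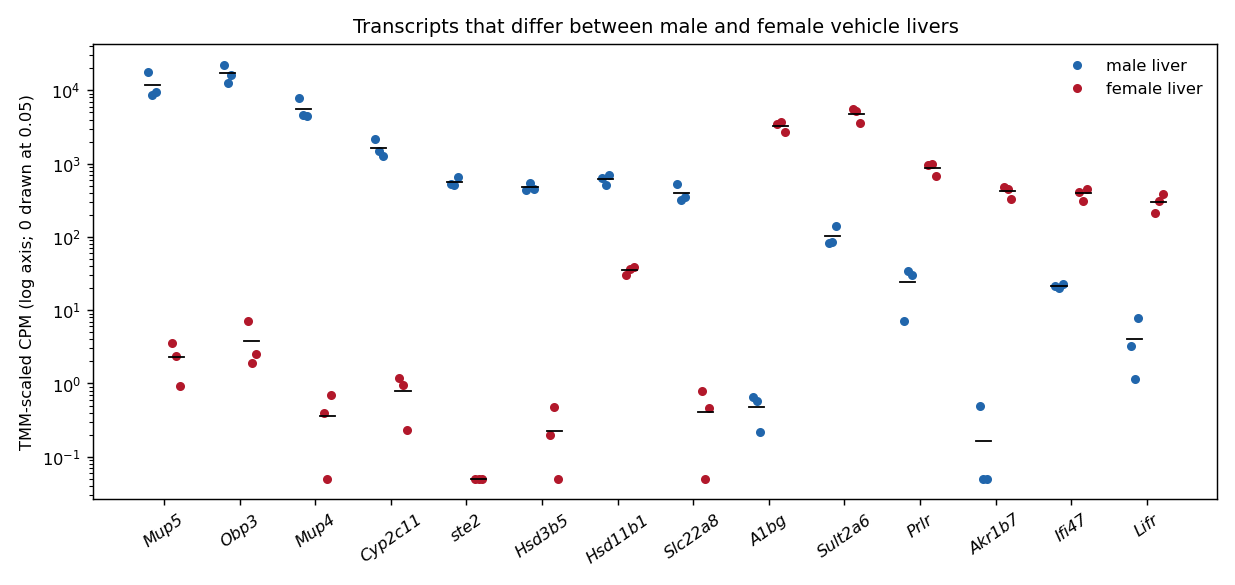
TMM-scaled CPM on a log axis for 14 transcripts in the 3 male and 3 female vehicle livers, with group means as bars and 0 drawn at 0.05. The first 8 are higher in all male livers and the last 6 in all female livers. All 14 were chosen for a difference between the sexes.

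Of 19 genes listed as male-biased in rat liver 17 were higher in males, and of 14 listed as female-biased 7 were higher in females; no member of either list was called in the other direction. Sult2a1 and Cyp2c7, listed as female-biased, did not pass: Sult2a1 gave 1008, 2478 and 1408 CPM in male livers, against 10825, 7074 and 6519 CPM in female livers (adjusted p = 0.472). Cyp2c7 gave 3603, 6445 and 5819 CPM in male livers, against 14989, 14828 and 15544 CPM in female livers (adjusted p = 0.753). The sexes did not overlap for either gene, which also held for 18.5% of all rows tested. Among the organ-enriched rows 22 of the 742 (2.96%) were called for sex, against 1.99% of all rows tested. The enriched rule asks for every liver of both sexes above every other library, so it can shut out genes near 0 in livers of 1 sex. It held 3 of the 19 male-biased and 8 of the 14 female-biased genes, and the share called for sex is shaped by the rule. In the other rats, 50 of the 176 male-higher rows passed the same way in BPA livers (background 0.55%) and 78 in Mix livers (background 2.36%). Of the 89 female-higher rows 27 and 57 did (background 0.422% and 1.73%). None passed in the opposite direction in BPA livers and 3 of the male-higher rows did in Mix livers. The sex counts rest on 3 rats each and moved with single libraries: the male count was 106 without female liver library 2 and 276 without female thyroid library 3, and the female count was 48, 51 and 57 without male liver library 1, male liver library 2 or female liver library 2, and 134 without female thyroid library 3. With the ribosomal RNA share as a covariate in the 6 livers alone the counts were 124 and 95, and without the covariate 211 and 191.

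Whether the liver difference itself depended on sex was tested in the organs both sexes have. The difference between liver and the mean of kidney and thyroid differed by sex for 0.832% of rows, 63 higher in males (0.472%) and 48 higher in females (0.36%), or for 61 rows in all with the rat as a block. Hsd11b1 had the smallest adjusted p, with a male minus female difference of 4.00 ± 0.37 log2 (adjusted p = 1.81e-05), and Prlr had -6.80 ± 0.73 (adjusted p = 0.00011). Ifi47 had -3.86 ± 0.52 (adjusted p = 0.000929). The count was unstable: it was 425 without female thyroid library 1, 172 without female thyroid library 3 and 1393 without female thyroid libraries 1 and 2, and 51 to 73 without male kidney library 1, female kidney library 2, male liver libraries 1 or 2, or female liver libraries 2 or 3.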

How the data were processed

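Per the labels' protocols, TRIzol RNA went into QuantSeq 3′ tag libraries. The submitters' processing notes name build rn6 and, without versions, Bowtie2, FastQC, edgeR and bedtools. The authors deposited raw counts per gene, 17048 rows of whole numbers for 70 libraries; 316 rows share 149 repeated symbols and were tested but left out of the lists, and 8 rows are ribosomal RNA. How strand, overlapping genes and reads with several alignments were counted is not stated.

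The 23 vehicle libraries were fitted together with edgeR 4.0.16 in R 4.3.3 as 8 groups of organ and sex (15 residual degrees of freedom): filterByExpr, TMM and glmQLFTest, with Benjamini-Hochberg adjustment over all 13342 rows tested and a threshold of 0.05. Each other organ had a weight of 0.25, with the sexes equal within an organ. The standard error is the log2 fold change divided by the square root of F. BPA (23 libraries) and Mix (24) were fitted separately. Rat codes in the labels pair organs of 1 animal. Deviations from the group means of same-rat libraries correlated at a median r of 0.048 (33 pairs, 8 over 0.1, highest 0.375). Libraries of different rats of the same sex gave a median of -0.028 (66 pairs, 1 over 0.1). Organs of the same rat were thus somewhat more alike, and the main fit had no term for the rat. No pair of replicates was a near duplicate. Replicates are separate rats; whether they shared a litter is not given. Alternatives were DESeq2 1.42.0, other scalings and filters, organ weights, a rat block and each library left out. The steps were run on simulated counts in which all libraries shared a mean profile, apart from altered rows in liver. That check held no differences in composition between organs and no rat effect, so it does not bear on scaling.

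Named genes were the 10 most abundant in liver, the 12 most enriched and most depleted by size (at least 100 CPM, at least 4 counts on the lower side), up to 4 called members per list by liver level with up to 3 in the opposite direction, up to 8 per sex by size without overlap (at least 10 CPM), up to 6 for the difference by sex, up to 5 by spread, and cell type markers; Cela3b, Ctrb1 and Clps were chosen after their values were seen. The members, lists and rules were chosen with earlier results of these data known. Some genes that these rules name are not reported here. Promoters are from RefSeq (GRCr8), matched by symbol or synonym; none was compared with rn6 coordinates.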

Additional observations from a re-analysis of the deposited data

Results flagged for a closer look

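Among 133 named genes, 10 (7.52%) had 1 liver library whose gap to its nearest neighbour exceeded Dixon's critical value for 6 samples; chance gives about 1 in 20. Female liver library 3 stood apart above the other livers for Gstp1 (58.4 CPM), Creb3l3 (1748 CPM), Igfbp2 (26.2 CPM). Male liver library 1 stood apart above the other livers for G6pc (2002 CPM), Cd5l (284 CPM). Male liver library 2 stood apart above the other livers for Mat1a (3563 CPM). Male liver library 3 stood apart above the other livers for Folr1 (0.649 CPM), Adgrg1 (3.03 CPM), Umod (2.16 CPM). Male liver library 3 stood apart below the other livers for Apoa2 (2080 CPM).

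For 9 named genes the difference between liver and the mean of kidney and thyroid differed between the sexes in the interaction test. The log2 difference, male minus female, was -1.60 for Gstp1, 1.14 for Epcam, 10.41 for Slc22a8, 18.29 for ste2, 16.80 for Sult1e1, -7.56 for Lifr, 4.00 for Hsd11b1, -6.80 for Prlr, -3.86 for Ifi47. Of these, values for genes with an organ and sex near 0 counts depend on the fit's prior count and are no bounds. The calls of Hsd11b1, Ifi47 and Prlr held in every alternative, and those of the other 6 did not. Epcam lost its call with the rat block (adjusted p = 0.13) and without most single libraries, ste2 without female thyroid library 1 (adjusted p = 1) and ste2 and Sult1e1 without female kidney library 2 (adjusted p = 1 for both). Gstp1 lost it without male liver library 1 (adjusted p = 0.0549), Lifr without male thyroid library 2 (adjusted p = 0.0671), and Slc22a8, ste2 and Sult1e1 without female thyroid libraries 1 and 2 (adjusted p = 1 for Slc22a8).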

How the results depend on the processing

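With each library left out in turn, rows higher in liver numbered 3522 to 3945, rows lower 3668 to 4367, liver-enriched rows 736 to 778 and liver-depleted rows 336 to 386; rows higher in male liver numbered 106 to 276, in female liver 48 to 134, and rows that differed by sex 51 to 425. Without scaling beyond library size the counts were 1699 higher, 7502 lower, 402 enriched, 943 depleted and 59 higher in female liver. The replicate block by rat code gave 61 rows that differed by sex and changed no other count by over 1.5 times (3644 higher, 4079 lower); no paired analysis was possible for male against female liver because each rat has 1 sex. Without kidney 520 rows were depleted. DESeq2 called 278 rows higher in male liver, 198 in female liver and 340 by sex. Chosen after seeing the data, the 6 livers alone gave 191 rows higher in female liver, and the fit without female thyroid libraries 1 and 2 gave 343, 190 and 1393. Of the named genes called against the other organs, 118 kept direction and call in every alternative and 8 did not. Of those called for sex, 17 did and 5 did not, and of those called for the difference by sex 3 did and 6 did not. The sign reversed for Gatm 0.029 (fit without kidney); Glul 0.21 (fit without testes). The fold moved by over 1.5 times for 123 of the genes called against the other organs without scaling, 61 without female thyroid libraries 1 and 2, 58 without testes, 44 without kidney, 42 without thyroids, 29 without ovaries and 22 with the block; the cause was not tested. Counts of list members moved by over 1.5 times in 155 combinations of list and alternative and stayed within it in 2731. The 3 rats per sex and low counts of liver genes in other organs limit the size of the largest folds.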

Other observations

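The 5 transcripts below were picked for the size of their spread between rats of the same sex, so no test is given. Ugt2b, a glucuronidating enzyme row, gave 862, 1019.7 and 16.9 CPM in male livers, against 1127, 1536 and 6.21 CPM in female livers, so library 3 of each sex stood low. Acsm5, a medium-chain acyl-CoA synthetase, gave 178, 58.7 and 1.73 CPM in male livers, against 203.4, 176 and 4.60 CPM in female livers, with the same libraries low. Fabp7, a fatty acid carrier best known from the brain, gave 254, 121 and 149 CPM in male livers, against 109, 80.0 and 5.75 CPM in female livers. Ces2e, a carboxylesterase, gave 13.4, 31.5 and 26.4 CPM in male livers, against 355, 1.42 and 242 CPM in female livers. Fam111a, a protease known from DNA replication, gave 243, 116 and 185 CPM in male livers, against 2.15, 2.12 and 173 CPM in female livers, and 7.71 to 2202 CPM in thyroid. Outside liver, Ugt2b reached at most 1.57 CPM, Fabp7 4.43 CPM and Ces2e 0.403 CPM. Library 3 of male liver had a ribosomal RNA share of 23.4%, against 2.72% and 2.50% in the other male livers, while library 3 of female liver, at 23.3%, lay between the other female livers, at 13.9% and 24.2%.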
